A study of Homo sapiens with 16 samples.

Results

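In melanoma cells resistant to MAPK pathway inhibitors, 43 protein-coding genes stood at least 2-fold from their on-drug level in opposite directions in the cell lines A375 and 451Lu at 24 h after the drug was withdrawn. Of these, 15 were higher in A375 and lower in 451Lu, and 28 were lower in A375 and higher in 451Lu. They were chosen by the ratio, taken between mean CPM (each gene's counts scaled to the library's column total) plus 0.5 at 24 h and on drug, and the mean plus 0.5 had to reach 5 in at least 1 group of each line. Of 30813 genes counted, 16739 were protein coding, 10051 reached that floor in both lines, and the 43 genes were 0.428% of these 10051. Since the 24 h and on-drug libraries chose the genes, their values in that contrast are a description and carry no test.

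The libraries were made from total RNA of 2 resistant lines, DR A375 and 451Lu BR, each kept in culture as a line. The A375 groups were cells on dabrafenib (0.5 µM) plus trametinib (0.05 µM) and cells given DMSO in their place for 6, 24 or 48 h. The 451Lu groups were cells on dabrafenib (1 µM) and cells given DMSO in its place for 24, 72 or 120 h. The source label of the 451Lu cells also names resistance to trametinib, which their treatment notes leave out. Each of the 8 groups had 2 libraries, and each line has its on-drug group at a single time, so hours in culture cannot be told apart from hours off drug. Line, drug and sampling times differ together between A375 and 451Lu.

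Dabrafenib blocks the kinase BRAF and trametinib blocks the kinase MEK, which pass growth signals on to the kinase ERK. Melanoma cells that have become resistant under such drugs can come to need them, and their removal then brings ERK activity above what the cells tolerate. Many melanoma genes follow ERK activity in the same direction in most lines, whereas secreted matrix factors, growth factor receptors and interferon-induced genes also depend on cell state, cell density and other pathways. CTGF and THBS1 are textbook targets of the coactivator YAP and its TEAD partners, and IFIT genes are textbook targets of interferon signalling.

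Library totals ran from 9714190 to 16691725 counts. Summed CPM of 8 markers of melanoma cells lay between 1019 and 1088 in A375 at 48 h and between 6029 and 6255 on drug, and between 859.7 and 983 in 451Lu at 120 h and between 11720.0 and 12390.0 on drug. Of these markers SOX10 averaged at least 127 CPM and MITF at least 43.7 CPM in every group, while the pigment gene DCT averaged 0.197 CPM and TYRP1 was at 0 in 451Lu at 120 h. Of 6 epithelial markers KRT18 averaged 49.3 CPM in A375 at 48 h and 43.8 CPM in 451Lu at 120 h, and EPCAM was at 0 off drug in both lines. Summed CPM of 8 fibroblast markers lay between 6.07 and 27.9 in A375 and between 32.7 and 160.0 in 451Lu, most of it LUM or PDGFRB. Summed CPM of 3 endothelial markers was at most 1.86 in A375, and in 451Lu it was 0.993 and 1.16 on drug, 2.00 and 2.83 at 24 h, 22.0 and 26.5 at 72 h and 101 and 102 at 120 h, nearly all of it PECAM1. Summed CPM of 4 markers of blood cells was at most 3.76 in any library. Mitochondrially encoded genes took 3.97% to 5.08% of counts in 451Lu off drug and 5.51% to 6.11% on drug, and 2.60% to 3.70% in A375 off drug and 4.81% to 5.53% on drug. The part of any of these shifts in the values of the 43 genes was not tested. In bulk RNA, fewer cells of a type and less RNA per cell cannot be told apart.

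Opposite directions were a small share of the large differences at 24 h. Of 536 genes at least 2-fold from on drug in both lines, 272 were higher in both, 221 were lower in both and 43 (8.02%) were opposite. For all 43 members, both 24 h libraries lay outside the range of the on-drug libraries in A375, where this held for 89.5% of the genes past the floor, and also in 451Lu, where it held for 81.7%. For single lines, 5.49% of genes past the floor were at least 2-fold higher in A375 and 10.4% lower, while 5.86% were higher and 5.5% lower in 451Lu. The scale on which libraries are compared moved the split of the members. With column totals, 34.9% of them (15 of 43) were the ones higher in A375. With TMM-adjusted library sizes, which move the median A375 ratio of all genes up by 0.24 on the log2 scale and that of 451Lu by 0.05, the rule gave 38 genes, 52.6% of them (20) higher in A375. Of these 38, 30 were members and 8 were not. On that scale 13 members no longer met the 2-fold ratio or the level floor, IFIT2, COL15A1, HDAC9, NOV and GPRC5A among them. All 43 members kept the sign of both ratios on the TMM scale, with absolute log2 ratios of at least 0.76 in A375 and 0.95 in 451Lu.

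**Figure D1:**
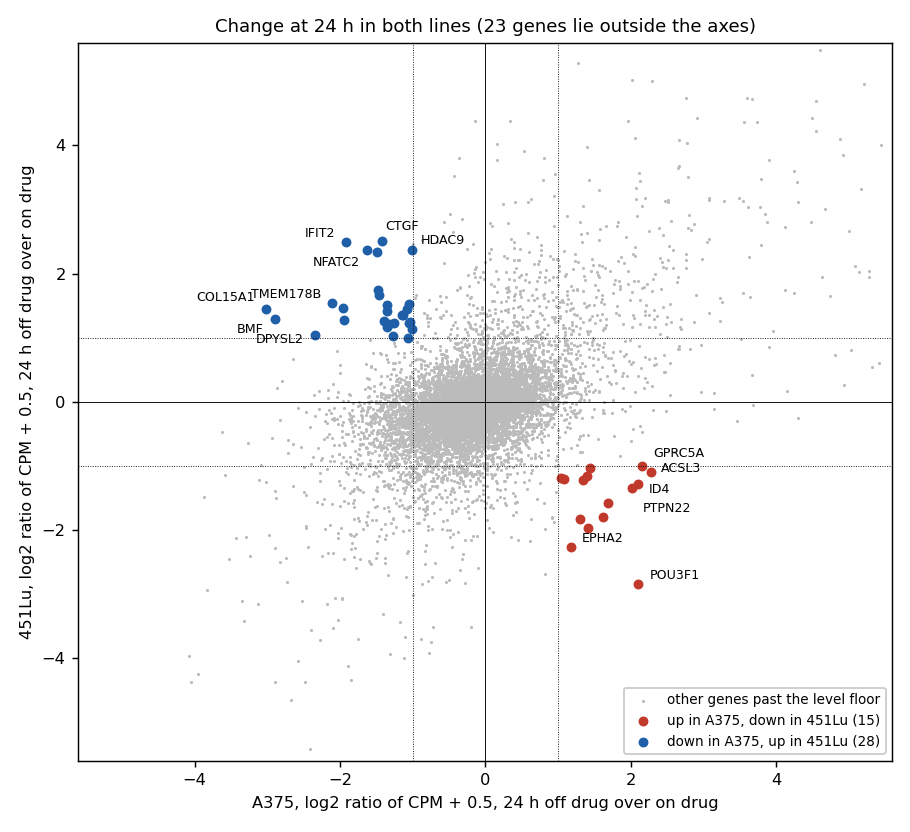
Log2 ratio of CPM + 0.5 at 24 h off drug over on drug in A375 (x axis) and 451Lu (y axis), 1 point a gene, for 10051 genes past the level floor. Dotted lines mark 2-fold; the 15 genes higher in A375 and lower in 451Lu lie in the lower right corner, the 28 genes lower in A375 and higher in 451Lu in the upper left, and 23 genes lie outside the axes.

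The members nearest the 2-fold line were GPRC5A, 4.47-fold higher in A375 and 2.01-fold lower in 451Lu, and TIAM2, 2.70-fold higher and 2.05-fold lower. Just outside it lay IDI1, 1.9988-fold higher in A375 and 1.98-fold lower in 451Lu, and EPHA4, 2.40-fold higher and 1.97-fold lower. On the other side ITPRIPL2 was 2.08-fold lower in A375 and 2.00-fold higher in 451Lu, and TMEM131 was 2.01-fold lower and 2.20-fold higher. PHACTR2, 1.9956-fold lower in A375 and 5.53-fold higher in 451Lu, and RUNX1, 1.96-fold lower and 3.06-fold higher, lay just outside.

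Promoter sequence was set beside the values because CTGF and THBS1 are TEAD targets and IFIT2 and IFIT3 are interferon targets in the literature on other cells. RefSeq promoters of build GRCh38.p14, reaching 250 bases before to 50 bases after the RefSeq start, were matched for 36 of the 43 genes. In some, RAB17, TIAM2, MCAM, TEX9 and HDAC9 among them, that start lies inside the gene's span in the deposited table. Other starts of these genes were not searched. The TEAD motif GGAATG, searched on both strands, was found in 6 of 13 promoters of genes higher in A375 (46.2%) and in 4 of 23 promoters of genes higher in 451Lu (17.4%), against 10.3% of 8331 promoters of genes past the floor and 14% of all 27305 promoters. The AP-1 motif TGANTCA was found in 0 of 13 and 1 of 23, against 3.9% of promoters of genes past the floor and 7.76% of all. The interferon-stimulated response element was found in 0 of 13 and 1 of 23, against 2.66% and 3.65%. TATAAA, the TATA box, was found in 2 of 13 (15.4%) and 4 of 23 (17.4%), against 4.84% and 12%. A match says that the letters are there, not that a factor binds them. Promoters with TEAD matches are printed for both TEAD-linked matrix genes and for a receptor and a regulator of the opposite direction, with the matches in capitals (CATTCC is the same motif on the other strand), and the IFIT3 promoter with only its response elements in capitals (TTTC first on this strand), all 5′ to 3′ on the gene's own strand.
CTGF (chr6:131951323-131951622, minus strand): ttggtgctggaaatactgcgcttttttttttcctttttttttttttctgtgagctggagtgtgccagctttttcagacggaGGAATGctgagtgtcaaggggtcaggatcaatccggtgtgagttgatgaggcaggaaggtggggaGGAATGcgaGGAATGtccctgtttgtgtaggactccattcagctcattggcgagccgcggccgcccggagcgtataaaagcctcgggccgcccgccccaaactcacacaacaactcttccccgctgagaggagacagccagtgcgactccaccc
THBS1 (chr15:39580829-39581128, plus strand): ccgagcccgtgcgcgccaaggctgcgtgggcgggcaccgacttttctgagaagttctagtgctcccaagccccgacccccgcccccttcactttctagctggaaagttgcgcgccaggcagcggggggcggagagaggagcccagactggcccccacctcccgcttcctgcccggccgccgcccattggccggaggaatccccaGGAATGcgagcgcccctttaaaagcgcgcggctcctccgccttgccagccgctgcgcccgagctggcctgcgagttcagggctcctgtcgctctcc
EPHA2 (chr1:16156020-16156319, minus strand): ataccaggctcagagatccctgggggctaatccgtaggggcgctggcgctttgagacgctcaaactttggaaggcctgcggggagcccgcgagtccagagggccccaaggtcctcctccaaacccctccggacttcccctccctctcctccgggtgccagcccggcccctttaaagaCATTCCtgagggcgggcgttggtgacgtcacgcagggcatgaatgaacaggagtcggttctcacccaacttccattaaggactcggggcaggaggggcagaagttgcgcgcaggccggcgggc
ID4 (chr6:19837120-19837419, plus strand): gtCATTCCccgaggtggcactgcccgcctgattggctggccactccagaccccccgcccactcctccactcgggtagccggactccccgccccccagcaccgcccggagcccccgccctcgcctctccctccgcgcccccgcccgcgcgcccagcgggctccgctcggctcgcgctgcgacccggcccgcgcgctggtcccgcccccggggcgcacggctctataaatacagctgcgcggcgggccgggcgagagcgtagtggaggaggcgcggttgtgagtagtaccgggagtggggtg
IFIT3 (chr10:89327747-89328046, plus strand): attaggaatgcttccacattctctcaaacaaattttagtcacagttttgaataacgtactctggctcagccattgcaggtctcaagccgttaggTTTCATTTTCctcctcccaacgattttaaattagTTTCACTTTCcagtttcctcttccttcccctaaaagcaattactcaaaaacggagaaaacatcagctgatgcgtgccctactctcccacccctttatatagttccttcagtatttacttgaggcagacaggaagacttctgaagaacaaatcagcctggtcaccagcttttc

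Tests compared libraries that the 2-fold ratio did not read, with edgeR's quasi-likelihood test. Benjamini-Hochberg adjustment ran over all genes tested, and calls were made at an adjusted p under 0.05. The spread behind each SE and p-value was estimated over all groups in a fit, the on-drug and 24 h groups included. The tests compare A375 at 48 h with 6 h, and 451Lu at 120 h with 72 h, here called the late steps. The A375 step spans 24 h, while the 451Lu step lies wholly after 24 h. The level floor was read over all groups of a line. SCUBE2 and PTPN22 reached it in A375 only through the 48 h libraries, and TMEM178B reached it in 451Lu only through the 72 and 120 h libraries, so these steps carry no test. The 3 genes are left out of the counts of calls, which run over the other 40 members, 13 higher in A375 at 24 h and 27 lower. Fitted log2 fold changes are given ± SE. Nothing in the labels tells separate cultures from repeat libraries, so these p-values rest on a spread between samples that may be technical.

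The transcriptional regulators among the genes higher in A375 were POU3F1 and ID4. POU3F1 (ENSG00000185668, chromosome 1, 38043827 to 38046794), a POU domain factor of neural and glial cells, was at 3.57 and 2.72 CPM in A375 on drug, 1.99 and 2.35 at 6 h, 15.9 and 14.4 at 24 h and 12.9 and 10.8 at 48 h. In 451Lu it was at 13.6 and 14.1 CPM on drug, 1.36 and 1.63 at 24 h, 1.34 and 1.78 at 72 h and 1.53 and 1.24 at 120 h. Thus the A375 libraries at 24 and 48 h stood above all earlier A375 libraries, and the level of 451Lu on drug was not met again at any time off drug. Between 6 and 48 h the gene rose in A375 by 2.36 ± 0.20 (log2, adjusted p = 9.71e-13), and in 451Lu the 120 h and 72 h libraries overlapped. ID4 (ENSG00000172201, chromosome 6, 19837386 to 19840684), which binds and blocks helix-loop-helix transcription factors, was at 11.9 and 10.6 CPM in A375 on drug, 19.5 and 18.1 at 6 h, 51.2 and 48.5 at 24 h and 34.1 and 29.7 at 48 h. In 451Lu its values were 16.03 and 15.6 CPM on drug, 5.64 and 6.78 at 24 h, 7.0001 and 7.67 at 72 h and 3.998 and 4.47 at 120 h. ID4 rose in the A375 late step by 0.68 ± 0.10 (adjusted p = 1.25e-07) and fell in the 451Lu late step (log2 fold change -0.70 ± 0.18, adjusted p = 0.00610). The A375 step spans 24 h, and both A375 libraries at 48 h stood below those at 24 h. With DESeq2 the 451Lu fall was not called (adjusted p = 0.0558).

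Receptors and other surface genes among the genes higher in A375 were EPHA2, MCAM, SDC3 and GPRC5A. EPHA2 (ENSG00000142627, chromosome 1, 16124337 to 16156087) encodes a receptor tyrosine kinase for ephrins. Its A375 levels were 19.7 and 19.1 CPM on drug, 50.8 and 51.9 at 6 h, 48.5 and 40.5 at 24 h and 48.2 and 49.6 at 48 h. In 451Lu the levels were 5.39 and 4.86 CPM on drug, 0.643 and 0.686 at 24 h, 0.206 and 1.87 at 72 h and 0 and 0.0828 at 120 h, where the 120 h libraries held 0 and 1 counts. All A375 libraries off drug stood above those on drug, and all 451Lu libraries off drug stood below. In counts, 120 h in 451Lu was at a ratio of 0.0359 to 72 h, with a 95% counting interval (exact Clopper-Pearson) of 0.00087 to 0.222. That call (adjusted p = 0.00689) ended without 72 h library 2, which held 20 of the 22 counts at 72 h. In A375 the 48 h and 6 h levels of EPHA2 gave a log2 fold change of -0.15 ± 0.08 and adjusted p = 0.0800, not past the threshold.

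MCAM (ENSG00000076706, chromosome 11, 119308529 to 119321521), an adhesion receptor named for melanoma, was at 555 and 571 CPM in A375 on drug, 1129 and 1121 at 6 h, 1406 and 1379.5 at 24 h and 936 and 971 at 48 h. For 451Lu the values were 683 and 726 CPM on drug, 189 and 205 at 24 h, 172 and 201 at 72 h and 162 and 180.5 at 120 h. MCAM thus stood highest in A375 at 24 h and fell between 6 and 48 h (log2 fold change -0.32 ± 0.04, adjusted p = 2.97e-08). SDC3, a heparan sulfate proteoglycan of the cell surface, averaged 343 ± 11.4 CPM at 24 h against 161 ± 4.95 CPM on drug in A375 and 201 ± 21.3 CPM at 24 h against 468 ± 25.2 CPM on drug in 451Lu (SD, n = 2 each). Its late steps ran the other way, with a fall in A375 (log2 fold change -0.35 ± 0.05, adjusted p = 6.08e-08) and a rise of 0.82 ± 0.08 in 451Lu (adjusted p = 1.74e-06).

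GPRC5A, an orphan G protein-coupled receptor induced by retinoic acid, was at 41.9 and 43.3 CPM in A375 on drug, 92.8 and 86.9 at 6 h, 205 and 179 at 24 h and 271 and 272 at 48 h. The libraries of each later time in A375 stood above all of the time before, and the 48 h libraries stood 1.52 ± 0.06 above 6 h (log2, adjusted p = 6.56e-22). In 451Lu the values were 190.1 and 205 CPM on drug, 93.6 and 103 at 24 h, 65.9 and 78.8 at 72 h and 59.2 and 66.1 at 120 h. SCUBE2 encodes a secreted protein that helps release Hedgehog ligands. It was at 0.924 and 1.63 CPM in A375 on drug, 2.41 and 3.05 at 6 h, 4.49 and 3.95 at 24 h and 31.6 and 30.3 at 48 h, and in 451Lu at 32.1 and 33.6 CPM on drug, 7.71 and 8.23 at 24 h, 3.50 and 3.27 at 72 h and 5.82 and 5.30 at 120 h. At 48 h the A375 libraries stood just under those of 451Lu on drug. That step carries no test, since the 48 h libraries alone brought SCUBE2 past the floor in A375. SCUBE2 rose in the 451Lu late step by 0.82 ± 0.18 (adjusted p = 0.00271).

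Lipid genes of the same direction were ACSL3 and NPC2. ACSL3 (ENSG00000123983, chromosome 2, 222860934 to 222944639), which activates long-chain fatty acids by joining them to coenzyme A, had A375 levels of 359 and 358 CPM on drug, 803 and 801 at 6 h, 1692 and 1774 at 24 h and 1796 and 1728 at 48 h. In 451Lu the libraries held 486 and 482 CPM on drug, 216 and 237 at 24 h, 387 and 403 at 72 h and 382 and 401 at 120 h. In A375 the 24 and 48 h libraries overlapped at the top and the late step was a rise of 1.05 ± 0.04 (log2, adjusted p = 7.49e-22). In 451Lu the lowest libraries were those at 24 h, and the late step of 0.09 ± 0.06 had adjusted p = 0.256. NPC2 binds cholesterol in the lysosome. It was 2.05-fold higher at 24 h in A375 and 2.28-fold lower in 451Lu, and rose in A375 to 80.5 ± 3.44 CPM at 48 h, against 20.99 ± 1.22 CPM at 6 h (SD, n = 2 each, log2 fold change 1.86 ± 0.08, adjusted p = 9.10e-21). Its 451Lu late step of 0.33 ± 0.11 was called, but not without 120 h library 1 (0.16) or 72 h library 1 (0.24).

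Signalling and cytoskeleton genes made up the rest of the genes higher in A375. PTPN22 (ENSG00000134242, chromosome 1, 113813811 to 113871759), a tyrosine phosphatase best known from lymphocytes, had 0 counts in both A375 libraries on drug. It was at 0.249 and 0.0871 CPM at 6 h, 1.56 and 1.48 at 24 h and 12.2 and 12.9 at 48 h. Against a floor of 3 counts over the on-drug group, A375 was at least 14.2-fold higher at 24 h and at least 117-fold higher at 48 h. In 451Lu PTPN22 was at 17.7 and 15.7 CPM on drug, 5.78 and 6.69 at 24 h, 20.9 and 24.3 at 72 h and 10.47 and 7.70 at 120 h, so its 72 h libraries stood above all others of the line. Its A375 late step carries no test, since the 48 h libraries alone brought it past the floor there. PTPN22 fell in the 451Lu late step (log2 fold change -1.21 ± 0.14, adjusted p = 1.05e-05). The blood cell marker PTPRC averaged 0.180 CPM at 48 h and 2.89 CPM on drug in A375, and was at 0 in every 451Lu group.

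RNF144B encodes a ubiquitin ligase. Its 24 h level in 451Lu was a low point: the libraries held 9.58 and 8.21 CPM on drug, 2.21 and 3.09 at 24 h, 7.72 and 7.39 at 72 h and 11.99 and 13.1 at 120 h. In A375 it held 6.404 and 7.60 CPM on drug, 5.73 and 4.18 at 6 h, 23.1 and 24.02 at 24 h and 13.9 and 14.53 at 48 h. RNF144B therefore rose in both late steps, by 1.43 ± 0.15 in A375 (adjusted p = 4.43e-10) and 0.83 ± 0.16 in 451Lu (adjusted p = 7.18e-04). Regulators of small GTPases and of cell shape were ARHGAP20, which switches small GTPases off, TIAM2, which switches Rac on, RAB17, a GTPase of membrane traffic, and SH3PXD2A, a scaffold of invasive cell protrusions. At 24 h they were 3.08, 2.70, 2.62 and 2.54-fold higher in A375 and 3.48, 2.05, 2.23 and 2.33-fold lower in 451Lu. SH3PXD2A was already at 219 and 208 CPM at 6 h in A375, against 87.3 and 86.6 CPM on drug. Of the GTPase genes, TIAM2 rose in the A375 late step by 1.09 ± 0.12 (adjusted p = 1.02e-09), and ARHGAP20 was called in neither late step.

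**Figure D2:**
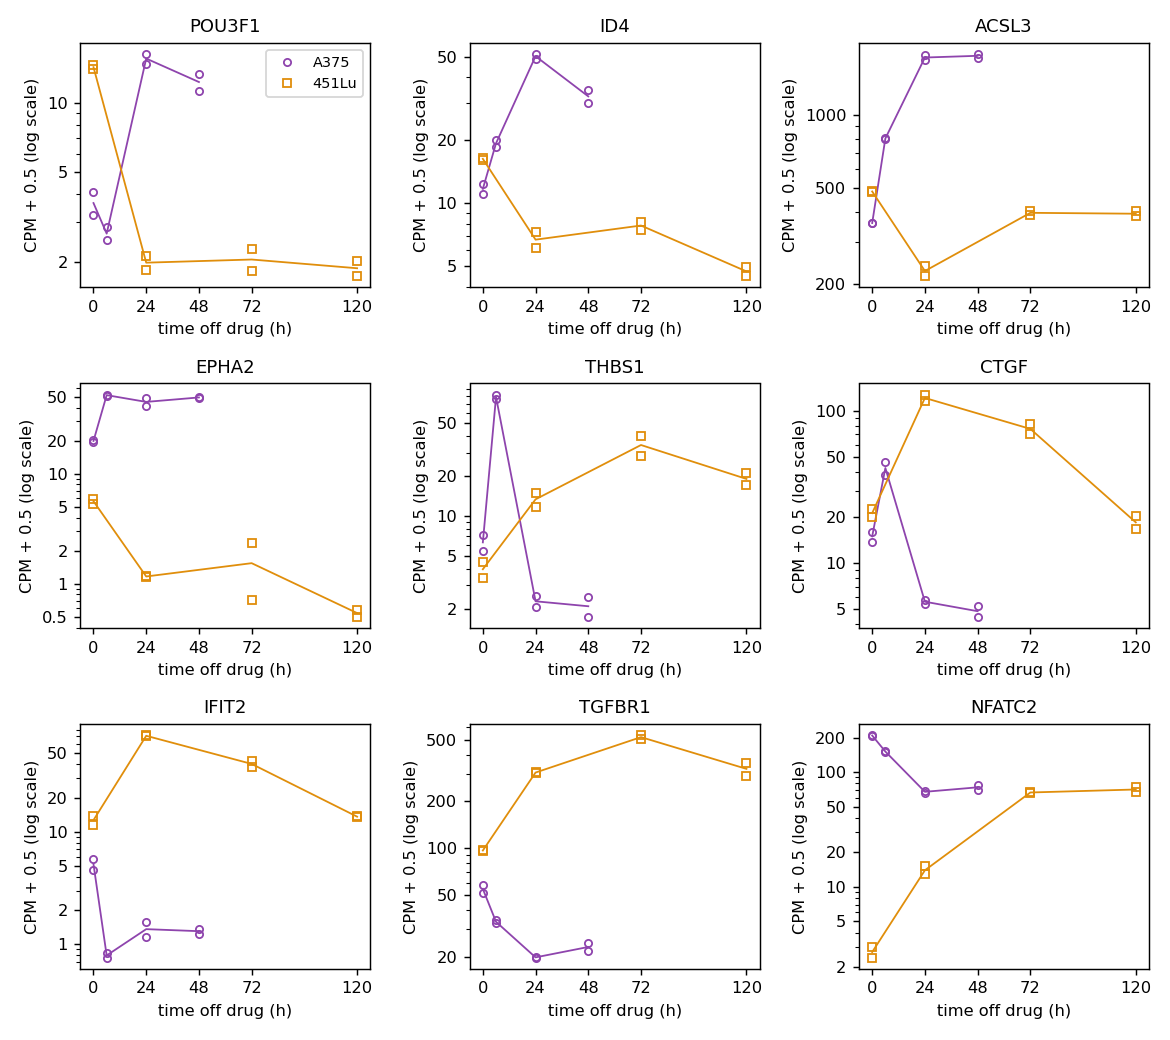
CPM + 0.5 on a log scale against hours off drug (0 is on drug) for 9 genes, with a circle per A375 library, a square per 451Lu library and lines through the 2-library means. POU3F1, ID4, ACSL3 and EPHA2 are above their on-drug level at 24 h in A375 and below it in 451Lu; the other 5 genes are the reverse, with a high point of THBS1 and CTGF at 6 h in A375.

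Matrix proteins and ligands among the genes lower in A375 and higher in 451Lu included THBS1, CTGF, NOV, COL15A1 and KITLG. THBS1 (ENSG00000137801, chromosome 15, 39581079 to 39599466), which encodes the matricellular protein thrombospondin, was at 4.95 and 6.67 CPM in A375 on drug, 81.5 and 75.002 at 6 h, 1.98 and 1.56 at 24 h and 1.93 and 1.23 at 48 h. In 451Lu it was at 2.91 and 4.01 CPM on drug, 14.497 and 11.2 at 24 h, 39.5 and 27.9 at 72 h and 20.5 and 16.5 at 120 h. The 6 h libraries of A375 stood above every other library of either line, so the sign of the A375 change depended on the hour. Between 6 and 48 h THBS1 fell (log2 fold change -5.71 ± 0.14, adjusted p = 3.23e-27). In the 451Lu late step it fell again (log2 fold change -0.75 ± 0.17, adjusted p = 0.00242), a call that ended without 72 h library 1 (-0.46).

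CTGF (ENSG00000118523, chromosome 6, 131948176 to 131951373), a matricellular protein of the CCN family whose printed promoter holds 3 TEAD matches, had the same early high point. It was at 13.4 and 15.7 CPM in A375 on drug, 46.04 and 37.4 at 6 h, 5.27 and 4.94 at 24 h and 3.96 and 4.75 at 48 h. In 451Lu the libraries were at 19.6 and 22.1 CPM on drug, 127 and 115 at 24 h, 69.7 and 81.7 at 72 h and 16.3 and 19.9 at 120 h. CTGF thus passed through a high point in both lines, at 6 h in A375 and at 24 h in 451Lu, and the 120 h libraries of 451Lu overlapped those on drug. Both late steps were falls, with log2 fold changes of -3.33 ± 0.14 in A375 (adjusted p = 4.27e-21) and -1.97 ± 0.11 in 451Lu (adjusted p = 2.43e-09). NOV, another CCN gene, was at 11.6 and 9.38 CPM at 24 h and 22.98 and 21.3 CPM on drug in A375, and at 51.6 and 51.5 CPM at 24 h and 17.1 and 17.9 CPM on drug in 451Lu. It also fell in both late steps, with log2 fold changes of -1.07 ± 0.13 in A375 and -0.64 ± 0.10 in 451Lu (adjusted p = 1.17e-08 and 2.19e-04).

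COL15A1 (ENSG00000204291, chromosome 9, 98943179 to 99070792), a collagen chain of basement membranes, had the lowest A375 ratio of all members. It was at 5.81 and 3.65 CPM in A375 on drug, 2.33 and 1.66 at 6 h, 0.120 and 0.165 at 24 h and 0.368 and 0.968 at 48 h, and the 24 h libraries held 2 and 2 counts. The 451Lu values were 1.70 and 1.28 CPM on drug, 4.57 and 5.32 at 24 h, 40.05 and 37.8 at 72 h and 32.4 and 40.1 at 120 h. In 451Lu the libraries at 72 and 120 h overlapped and stood above all others. COL15A1 fell between 6 and 48 h in A375 (log2 fold change -1.63 ± 0.44, adjusted p = 0.00149), with a value of -2.51 without 48 h library 2. KITLG, the ligand of the receptor KIT, was at 12.5 and 11.9 CPM in A375 on drug, 19.8 and 21.4 at 6 h, 3.53 and 5.10 at 24 h and 3.96 and 3.17 at 48 h, and fell in the late step (log2 fold change -2.61 ± 0.16, adjusted p = 1.89e-16). In 451Lu it was at 2.98 and 2.68 CPM on drug, 8.21 and 6.78 at 24 h, 9.57 and 10.3 at 72 h and 9.96 and 10.51 at 120 h. Its receptor gene KIT, not a member, was nearly absent from A375 (at most 0.0300 CPM on average) and averaged 150.4 CPM in 451Lu on drug, 25.8 at 24 h, 10.2 at 72 h and 2.13 at 120 h. Within 451Lu the ligand was thus higher and its receptor lower off drug than on drug.

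TGFBR1 (ENSG00000106799, chromosome 9, 99104038 to 99154192), the signalling receptor for TGF-beta ligands, was at 57.2 and 51.05 CPM in A375 on drug, 33.7 and 32.4 at 6 h, 19.2 and 19.4 at 24 h and 24.03 and 21.2 at 48 h. The 451Lu libraries were at 94.8 and 97.4 CPM on drug, 304 and 308 at 24 h, 531 and 505 at 72 h and 292 and 354 at 120 h. All libraries off drug stood below those on drug in A375 and above them in 451Lu. TGFBR1 fell in both late steps, with log2 fold changes of -0.63 ± 0.09 in A375 (adjusted p = 2.27e-07) and -0.58 ± 0.07 in 451Lu (adjusted p = 2.10e-05). The difference between these steps was -0.07 ± 0.12 (adjusted p = 0.661). The partner receptor gene TGFBR2 was no member, with a log2 ratio at 24 h of -0.26 in A375 and 0.77 in 451Lu.

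Both interferon-induced members lie side by side on chromosome 10, 18618 bases apart. IFIT2 (ENSG00000119922, chromosome 10, 89301955 to 89309276), which encodes a cytoplasmic antiviral protein, was at 4.09 and 5.20 CPM in A375 on drug, 0.332 and 0.261 at 6 h, 0.659 and 1.07 at 24 h and 0.736 and 0.880 at 48 h. In 451Lu it was at 13.3 and 11.1 CPM on drug, 69.98 and 71.02 at 24 h, 37.4 and 41.5 at 72 h and 12.9 and 13.3 at 120 h. The 451Lu level was therefore a pulse: highest at 24 h, and at 120 h overlapping the on-drug libraries. IFIT2 fell in the 451Lu late step (log2 fold change -1.49 ± 0.10, adjusted p = 3.09e-08). In A375 its rise of 1.34 ± 0.60 between 6 and 48 h (adjusted p = 0.0472) rests on 3 to 10 counts a library and was not called when any of the 4 libraries was left out, with values of 1.18 to 1.51. IFIT3, its neighbour with response elements in the printed promoter, was at 9.18 and 9.78 CPM in A375 on drug, 3.66 and 4.36 at 6 h, 1.74 and 2.47 at 24 h and 1.56 and 1.94 at 48 h. For 451Lu the values were 34.8 and 34.2 CPM on drug, 82.5 and 86.7 at 24 h, 40.5 and 40.6 at 72 h and 14.54 and 15.7 at 120 h, the last below the on-drug libraries. IFIT3 fell in both late steps, with log2 fold changes of -1.26 ± 0.27 in A375 (adjusted p = 8.22e-05) and -1.32 ± 0.09 in 451Lu (adjusted p = 2.48e-08).

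Regulators of transcription were NFATC2, ETV6 and HDAC9. NFATC2 (ENSG00000101096, chromosome 20, 51386957 to 51562831), a calcium-regulated transcription factor, was at 209 and 208 CPM in A375 on drug, 153 and 148 at 6 h, 68.2 and 65.6 at 24 h and 77.4 and 69.2 at 48 h. In 451Lu the libraries held 1.92 and 2.49 CPM on drug, 14.6 and 12.4 at 24 h, 66.6 and 65.5 at 72 h and 66.6 and 73.7 at 120 h. The lines began far apart and ended at about the same CPM, with the 48 h libraries of A375 and the 120 h libraries of 451Lu overlapping. NFATC2 fell in the A375 late step (log2 fold change -1.12 ± 0.06, adjusted p = 1.25e-18). HDAC9, a class IIa histone deacetylase, was at 8.19 and 8.30 CPM in A375 on drug, 14.04 and 11.5 at 6 h, 3.95 and 3.70 at 24 h and 6.17 and 6.25 at 48 h, and in 451Lu at 9.15 and 7.84 CPM on drug, 45.1 and 47.1 at 24 h, 39.9 and 43.8 at 72 h and 15.3 and 16.2 at 120 h. HDAC9 fell in both late steps, with log2 fold changes of -1.12 ± 0.15 in A375 and -1.31 ± 0.10 in 451Lu (adjusted p = 4.21e-08 and 6.72e-08). ETV6, an ETS family repressor, averaged 11.7 ± 0.287 CPM at 24 h and 26.3 ± 0.0855 CPM on drug in A375, and 68.9 ± 0.688 CPM at 24 h and 26.8 ± 1.25 CPM on drug in 451Lu (SD, n = 2 each). At 120 h in 451Lu it averaged 60.1 ± 5.66 CPM, still above every on-drug library.

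Signalling and cell death genes of this direction included IRS1 and BMF. IRS1 relays signals of the insulin and IGF receptors. It was at 25.9 and 28.4 CPM in A375 on drug, 13.5 and 10.8 at 6 h, 10.2 and 10.3 at 24 h and 9.57 and 8.63 at 48 h, and in 451Lu at 22.6 and 22.2 CPM on drug, 64.99 and 55.9 at 24 h, 73.6 and 63.7 at 72 h and 76.3 and 67.5 at 120 h. Both lines began at similar levels and moved apart, and all libraries off drug stayed on their side. IRS1 fell in the A375 late step (log2 fold change -0.50 ± 0.14, adjusted p = 0.00176), which was not called without 6 h library 1 (-0.33). BMF (ENSG00000104081, chromosome 15, 40087890 to 40108892), a pro-apoptotic member of the BH3-only proteins, was at 26.1 and 22.3 CPM in A375 on drug, 0.0831 and 0.0871 at 6 h, 2.995 and 2.63 at 24 h and 2.95 and 4.23 at 48 h. Its 6 h libraries held 1 count each, the lowest point of the course, and the 48 h counts were 42.3 times those at 6 h (95% counting interval 11.3 to 356, adjusted p = 3.49e-10). In 451Lu BMF was at 2.13 and 3.95 CPM on drug, 8.28 and 8.06 at 24 h, 5.97 and 10.4 at 72 h and 6.398 and 6.95 at 120 h. MOB3A, of the MOB family of kinase regulators, averaged 15.4 ± 0.921 CPM at 24 h and 34.8 ± 2.39 CPM on drug in A375, and 54.1 ± 2.72 CPM at 24 h and 20.95 ± 1.84 CPM on drug in 451Lu.

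Genes of the cytoskeleton and cell adhesion included ENC1, MAP1A, TTLL7, DPYSL2 and PCDHGC3. ENC1, an actin-binding protein of the kelch family, was at 38.6 and 38.8 CPM in A375 on drug, 68.9 and 67.2 at 6 h, 13.6 and 13.2 at 24 h and 19.9 and 19.1 at 48 h. In 451Lu it was at 0.993 and 1.22 CPM on drug, 7.498 and 7.72 at 24 h, 6.49 and 9.17 at 72 h and 13.7 and 8.77 at 120 h. ENC1 fell in the A375 late step (log2 fold change -1.88 ± 0.08, adjusted p = 3.72e-21) and rose in that of 451Lu by 0.63 ± 0.20 (adjusted p = 0.0265), the 451Lu call ending without 120 h library 1 (0.24) or 72 h library 1 (0.43). MAP1A, which binds microtubules, was at 20.005 and 17.1 CPM in A375 on drug, 3.91 and 3.22 at 6 h, 4.55 and 4.28 at 24 h and 6.72 and 7.31 at 48 h. It was thus lowest at 6 h, and its late step was a rise of 0.89 ± 0.20 (adjusted p = 1.49e-04). PCDHGC3, a protocadherin of neuronal adhesion, averaged 51.3 ± 2.71 CPM at 48 h and 144 ± 1.45 CPM at 6 h in A375, a fall with a log2 fold change of -1.57 ± 0.06 (adjusted p = 3.01e-22). It shares exons with 21 genes of the same strand, of the protocadherin gamma cluster, so its counts are uncertain. TTLL7, which adds glutamate chains to tubulin, and DPYSL2, a microtubule protein of axon growth, were 2.07 and 5.10-fold lower at 24 h in A375 and 2.35 and 2.05-fold higher in 451Lu.

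Of the remaining 8 genes of this direction, TMEM178B was nearly absent from 451Lu on drug. It was at 114 and 106 CPM in A375 on drug, 89.5 and 77.96 at 6 h, 24.1 and 26.2 at 24 h and 52.7 and 38.3 at 48 h. In 451Lu it was at 0 and 0.0608 CPM on drug (0 and 1 counts), 0.714 and 1.37 at 24 h, 19.5 and 19.1 at 72 h and 27.8 and 30.2 at 120 h. The 451Lu counts at 24 h were 30.9 times those on drug (95% counting interval 5.08 to 1269). TMEM178B fell in the A375 late step (log2 fold change -0.96 ± 0.09, adjusted p = 4.11e-12). Its 451Lu late step carries no test, since the 72 and 120 h libraries alone brought it past the floor there. ITPRIPL2 and TMEM131, a gene of collagen secretion, fell in the A375 late step and rose in that of 451Lu, with log2 fold changes of -1.85 ± 0.06 and -1.20 ± 0.06 in A375 (adjusted p = 4.42e-25 and 5.81e-19) and of 0.43 ± 0.06 and 0.27 ± 0.06 in 451Lu (adjusted p = 3.50e-05 and 0.00161). With column totals in place of TMM the TMEM131 rise was 0.16. HCFC1R1, which binds a host cell factor, showed the reverse late steps, a rise of 0.71 ± 0.16 in A375 (adjusted p = 1.51e-04) and a fall in 451Lu (log2 fold change -1.02 ± 0.11, adjusted p = 3.34e-06). UGT2B7, an enzyme that joins glucuronic acid to steroids and drugs, was at 2.58 and 2.88 CPM at 24 h and 6.21 and 9.31 CPM on drug in A375, and at 49.3 and 44.4 CPM at 24 h and 16.2 and 16.2 CPM on drug in 451Lu, but it has near-identical relatives in its gene family and its counts are uncertain. BBS12, a gene of the cilium, OGFRL1 and TEX9 were 2.40, 2.51 and 2.41-fold lower at 24 h in A375 and 2.35, 2.31 and 2.03-fold higher in 451Lu.

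**Figure D3:**
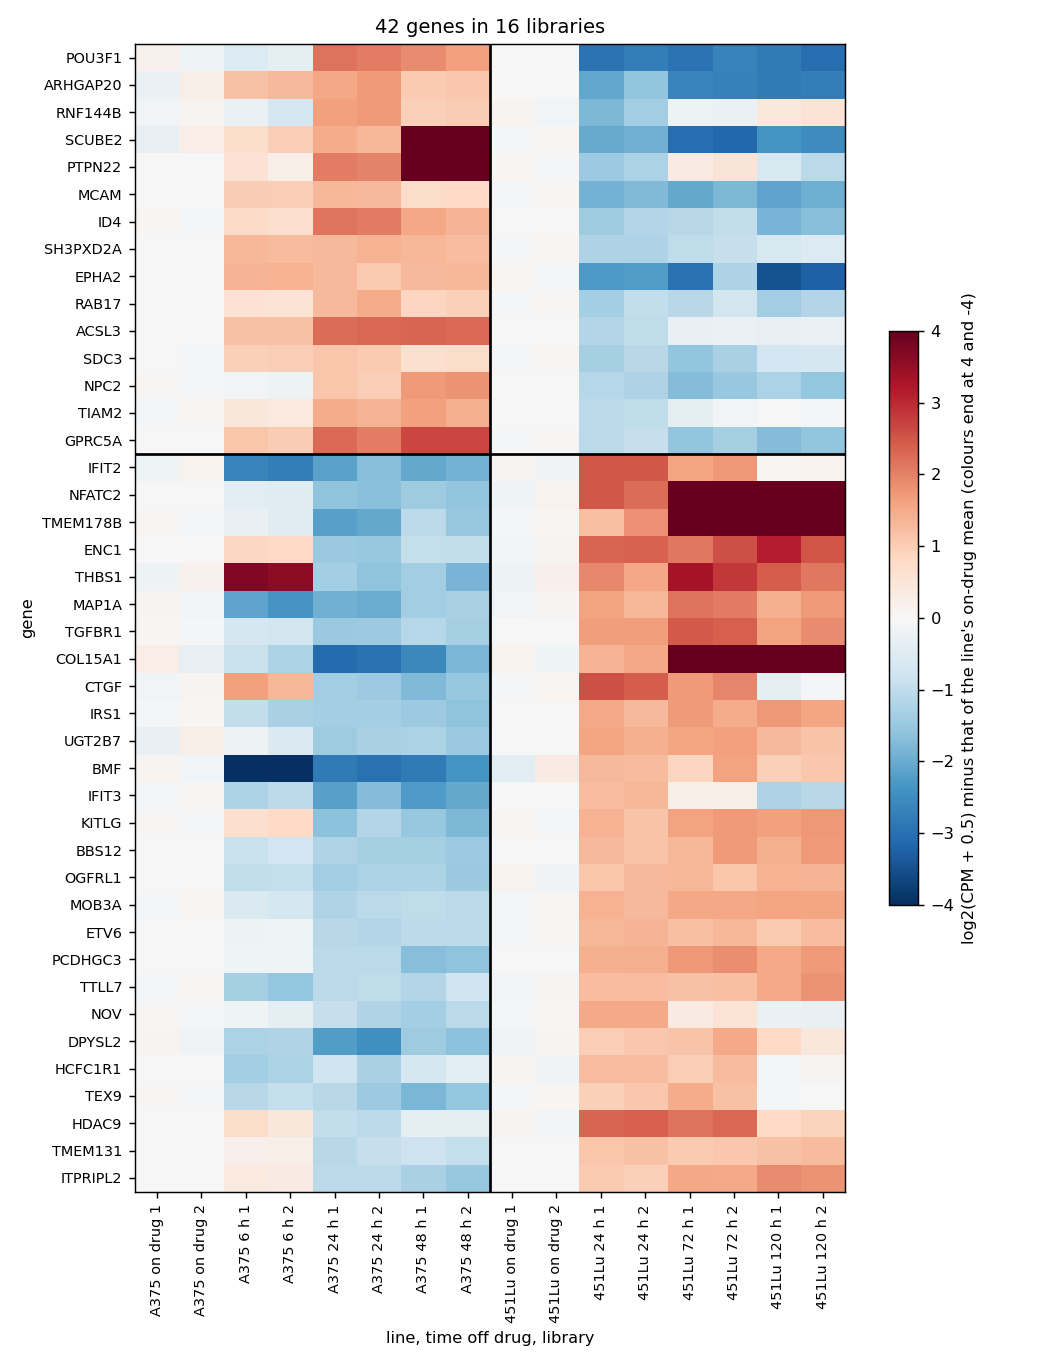
Log2(CPM + 0.5) of 42 of the 43 genes (rows) in each of the 16 libraries (columns), minus that of the mean of the on-drug libraries of the same line. Red is above and blue below the on-drug mean, with colours ending at 4 and -4; the upper block holds the 15 genes higher in A375 at 24 h and the lower block 27 of the 28 genes lower there, and THBS1, CTGF, ENC1 and KITLG are red at 6 h in A375 before turning blue.

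At the times outside the 24 h ratio the members stayed mostly on their 24 h side of the on-drug level. These contrasts share the on-drug libraries that chose the genes and are given without a test. At 48 h in A375 all 15 genes of the first direction were above their on-drug mean and all 28 of the other were below it. At 6 h 12 of 15 were above, all but POU3F1, RNF144B and NPC2, and 21 of 28 were below. The 7 genes that were above on drug at 6 h and below it at 24 h were THBS1, CTGF, KITLG, ENC1, HDAC9, TMEM131 and ITPRIPL2. In 451Lu at 72 h, 14 of 15 were below the on-drug mean, PTPN22 being above it, and 28 of 28 were above. At 120 h the counts were 14 of 15 below and 24 of 28 above. RNF144B was above its on-drug mean at 120 h, and CTGF, IFIT3, NOV and TEX9 were below theirs. Over the 10051 genes past the floor, 3695 were above their on-drug mean and 6356 below it at 6 h in A375. At 48 h in A375, 4112 were above and 5939 below. In 451Lu 3720 were above and 6331 below at 72 h, and 3399 were above and 6652 below at 120 h.

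In the A375 late step 36 of the 40 members counted were called, where 70.6% of 14449 genes tested were called. In this and the later tests, the genes tested were not limited to protein-coding genes past the level floor, as the members were. The share called among such genes was not computed. Among the 13 genes higher in A375 at 24 h, 8 rose, 2 fell and 3 (ARHGAP20, SH3PXD2A and EPHA2) were not called, against 36.0% of all genes tested that rose and 34.6% that fell. Their median log2 fold change was 0.68, against 0.01 over all genes tested. The 2 that fell were MCAM and SDC3. Among the 27 genes lower in A375 at 24 h, 21 fell, 5 rose and 1 was not called, with a median of -0.99. The 5 that rose were IFIT2, MAP1A, BMF, TTLL7 and HCFC1R1. In 31 of the 36 called members the call held under every alternative run, the exceptions being DPYSL2, IFIT2, IRS1, RAB17 and TTLL7. RAB17 was not called without 6 h library 1 (0.29), 6 h library 2 (0.26) or 48 h library 2 (0.22), against 0.28. DPYSL2 was not called without the same libraries (-0.42, -0.35 and -0.28, against -0.38), nor TTLL7 without 6 h library 2 (0.33) or 48 h library 2 (0.20, against 0.44).

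In the 451Lu late step 23 of 40 members were called, where 32.7% of 13851 genes tested were called. Among the 13 genes lower in 451Lu at 24 h, 4 rose, 2 fell and 7 were not called, against 16.6% of all genes that rose and 16.1% that fell, and their median log2 fold change was -0.02 against -0.003 over all genes tested. The 4 that rose were RNF144B, SH3PXD2A, SDC3 and NPC2, and the 2 that fell were ID4 and EPHA2. Among the 27 genes higher in 451Lu at 24 h, 13 fell, 4 rose and 10 were not called, with a median of -0.20. The 13 that fell included CTGF, IFIT2, IFIT3, HDAC9, HCFC1R1, TEX9, TGFBR1 and NOV, with adjusted p from 2.43e-09 to 2.19e-04. Also among them were THBS1, MAP1A, DPYSL2 and UGT2B7, which with TTLL7, NPC2, ENC1 and EPHA2 lost their call when a single library was left out. MAP1A, at -0.46, was not called without 120 h library 1 (-0.33), 72 h library 1 (-0.39) or 72 h library 2 (-0.54). DPYSL2 (-0.65) and UGT2B7 (-0.29) were not called without 120 h library 2 (-0.50 and -0.23) or 72 h library 2 (-0.47 and -0.30), nor TTLL7 (0.59) without 120 h library 2 (0.43).

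**Figure D4:**
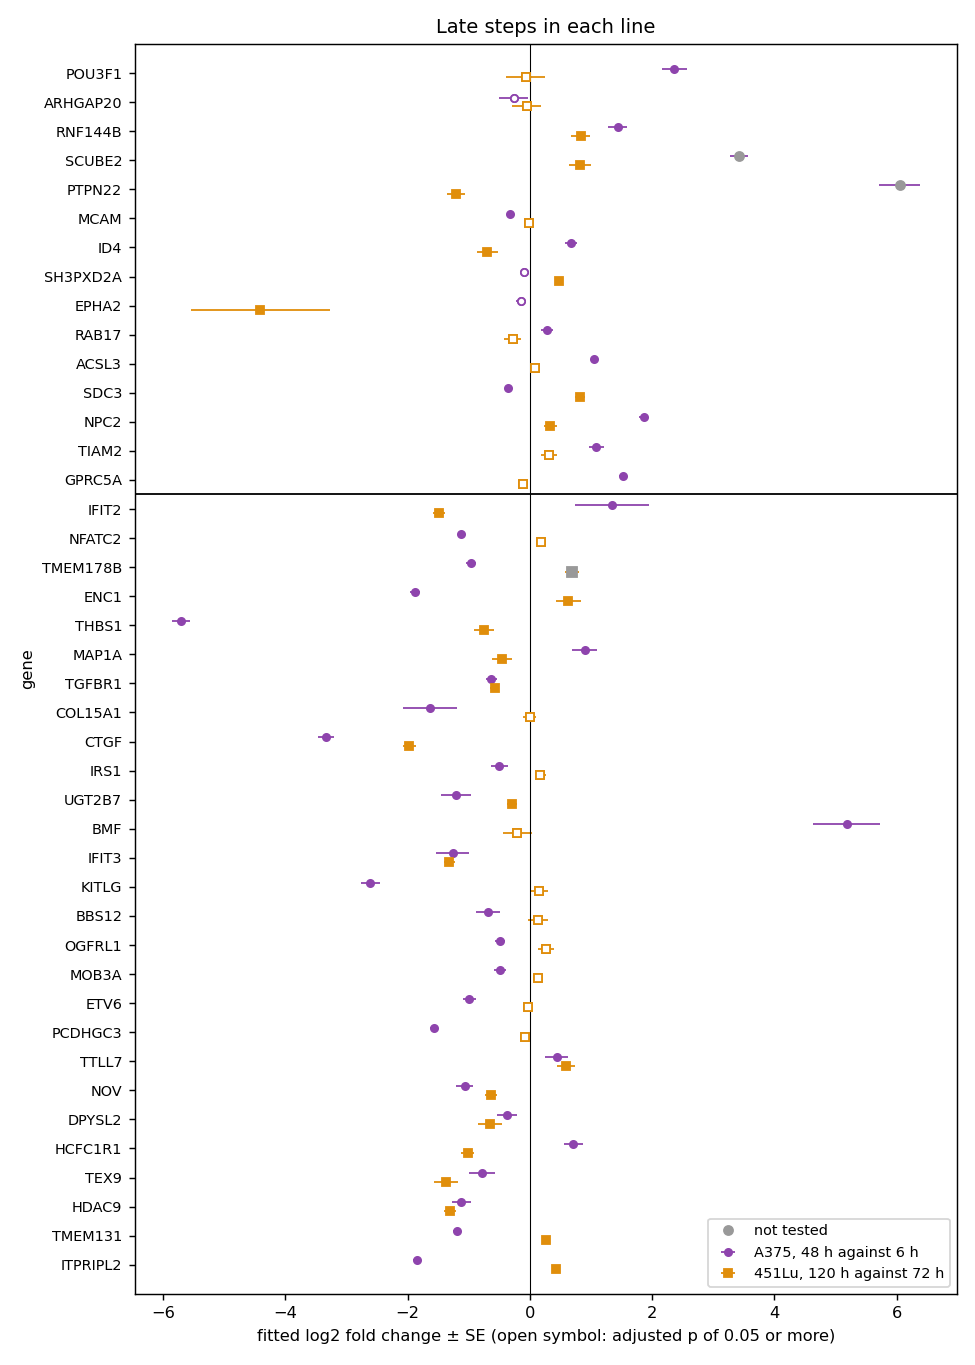
Fitted log2 fold change ± SE of 42 of the 43 genes (rows) between 48 and 6 h in A375 (circles) and between 120 and 72 h in 451Lu (squares), with open symbols where adjusted p was 0.05 or more and grey symbols for the steps of SCUBE2, PTPN22 and TMEM178B that carry no test. The 15 genes higher in A375 at 24 h are above the line; most of their circles lie right of 0, most circles of the other 27 lie left of it, and in 31 of the 42 genes the square lies closer to 0 than the circle.

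The difference between both late steps was tested in 1 fit of all 16 libraries over 15481 genes, of which 54.2% were called. Of the 13 genes higher in A375 at 24 h, 9 had a higher step in A375 than in 451Lu, 3 a lower one and 1 was not called, against 26.8% higher and 27.4% lower of all genes. The 3 were SDC3, SH3PXD2A and MCAM, and the MCAM value of -0.32 was -0.11 and not called with column totals. Of the other 27 genes, 16 had a lower step in A375, 5 a higher one (IFIT2, MAP1A, BMF and HCFC1R1 among them) and 6 were not called. In 8 of the 40 genes both late steps were called and had opposite signs. Column totals in place of TMM moved the median of all genes by 0.20 in this difference, by -0.10 in the 451Lu late step and by 0.28 in the level comparison that follows, so values of that size depend on the scale. The calls of several members rested on single libraries. COL15A1 (-1.65) was not called without 48 h library 1 (-1.10) or 6 h library 1 (-1.36), and was at -2.51 without 48 h library 2. UGT2B7 (-0.94) was not called without 6 h library 1 (-0.70), nor MCAM without 72 h library 1 (-0.20). NOV (-0.45) was not called when any of 5 libraries was left out, with values of -0.45 to -0.28. The call of RNF144B (0.58) ended without any of 4 libraries, at the most without 6 h library 2 (0.38), and that of RAB17 (0.54) ended without 72 h library 2 (0.36) or 48 h library 2 (0.49). EPHA2 was not called without 72 h library 2. The genes of G2 and mitosis, none of them a member, also moved apart in the late steps, 28 of 29 rising in A375 and 29 of 29 falling in 451Lu, with median log2 fold changes of 1.25 and -3.11. Its part in the members' values was not tested. The steps span different hours in the lines, 6 to 48 h and 72 to 120 h.

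The last groups of each line were compared directly, A375 at 48 h with 451Lu at 120 h, where 80.5% of 15481 genes tested were called. Of the 13 genes higher in A375 at 24 h, 9 were higher in A375 at 48 h than in 451Lu at 120 h, SDC3 was lower and 3 (ARHGAP20, RNF144B and RAB17) were not called, against 40.7% higher and 39.7% lower of all genes. The counts of EPHA2 stood at a ratio of 1264 (95% counting interval 226 to 49970.0). POU3F1 was higher by 2.80 ± 0.21, ID4 by 2.63 ± 0.13, MCAM by 2.20 ± 0.06 and ACSL3 by 1.89 ± 0.05 (log2, adjusted p = 2.51e-12, 3.48e-16, 2.65e-21 and 4.84e-22). Of the other 27 genes, 23 were lower in A375, 2 higher (OGFRL1 and ENC1) and 2 not called (DPYSL2 and TEX9). Among these, COL15A1 stood at -5.998 ± 0.24, IFIT2 at -4.27 ± 0.22, TGFBR1 at -4.11 ± 0.09 and THBS1 at -3.83 ± 0.26 (adjusted p = 3.94e-18, 1.49e-15, 6.14e-24 and 4.88e-13). The call of NFATC2 (-0.21) turned sign with column totals (0.06), and that of SDC3 (-0.40) ended there (-0.13). ENC1 (0.50) was not called without 120 h library 2 (0.25), and was at 0.90 without 120 h library 1. Calls of MAP1A (-0.54) and TIAM2 (0.28) ended without 120 h library 2 (-0.38 and 0.28) or 48 h library 1 (-0.43 and 0.23), and that of NFATC2 without 120 h library 2 (-0.12) or 48 h library 2 (-0.13).

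Many of the genes also changed which line held more. These ratios of CPM + 0.5 use the libraries that chose the genes and are a description. The rule itself makes the ratio between the lines shift from on drug to 24 h in every member, so turned orders are partly built in. At 24 h 12 of the 15 genes of the first direction were higher in A375 than in 451Lu, and the median log2 ratio of A375 over 451Lu was 1.43. On drug 14 of the 15 were lower in A375, with EPHA2 the exception, and the median was -1.53. In 11 of the 15 the order of the lines turned between on drug and 24 h, and ARHGAP20, SCUBE2, PTPN22 and EPHA2 kept it. POU3F1 stood at 2.97 at 24 h and -1.98 on drug. Of the 28 genes of the other direction, 24 were lower in A375 at 24 h and 20 were higher in A375 on drug, with medians of -1.64 and 1.20. Over all 10051 genes past the floor the medians were -0.04 at 24 h and 0.06 on drug. Of these 10051, 4840 were higher and 5211 lower in A375 at 24 h, and 5371 were higher and 4680 lower on drug. The order turned in 16 of the 28 genes. Turned orders were not counted over all genes, so those counts have no share beside them. NFATC2, TMEM178B, ENC1 and OGFRL1 stayed higher in A375 with a smaller gap, TMEM178B at 4.05 at 24 h and 7.70 on drug.

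**Figure D5:**
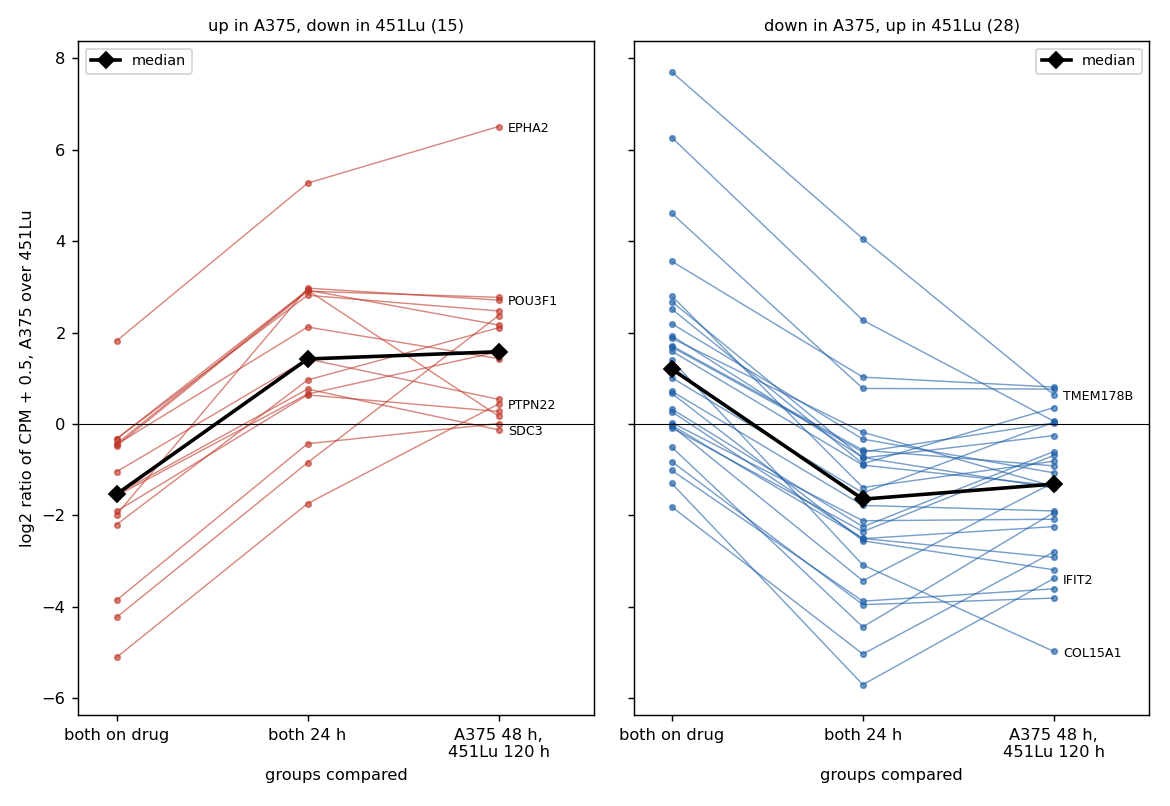
Log2 ratio of CPM + 0.5, A375 over 451Lu, with both lines on drug, both at 24 h off drug, and A375 at 48 h over 451Lu at 120 h, 1 thin line a gene and black diamonds for the median. In the left panel the median of 15 genes is -1.53, 1.43 and 1.58 in that order; in the right panel the median of 28 genes is 1.20, -1.64 and -1.31.

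The 14 pathway lists, written with earlier results of these data known, held 273 genes past the floor, of which 7 were members (2.56%), against 0.428% of all genes past the floor. Of 23 genes of ERK pathway output past the floor, 19 were at least 2-fold higher at 24 h in A375 and 14 in 451Lu, 13 in both, and EPHA2 was the only member. Of 20 genes of melanocyte identity, 11 were at least 2-fold lower in A375 and 15 in 451Lu, 9 in both, and 0 were members. The interferon list held 16 genes past the floor with IFIT2 and IFIT3 as members. Its median log2 ratio was -0.21 in A375 and 0.48 in 451Lu, against -0.18 and -0.06 over all genes past the floor. The mesenchymal and invasive list held 26, of which THBS1 and CTGF were members, 11 were higher in both lines and 0 lower in both. Of 10 receptor tyrosine kinases and ligands past the floor, EPHA2 and KITLG were members, and of 18 genes of the TGF-beta, BMP and WNT pathways TGFBR1 was. The lists for S phase, G2 and mitosis, cytokines, cell cycle inhibitors, lipid synthesis, glycolysis, the amino acid response and neural crest genes held 0 members. In the late steps 36.0% of all genes tested rose and 34.6% fell in A375, and 16.6% rose and 16.1% fell in 451Lu. Beside these shares, 13 of 22 interferon genes tested rose and 4 fell in A375, and 10 of 26 rose and 7 fell in 451Lu, where IFIT2 and IFIT3 both fell. Of the mesenchymal list 16 of 34 rose and 13 fell in A375, and 14 of 33 rose and 4 fell in 451Lu, THBS1 and CTGF falling in both. Of the TGF-beta, BMP and WNT list 14 of 29 rose and 11 fell in A375, and 12 of 26 rose and 3 fell in 451Lu, TGFBR1 falling in both. Of the receptors and ligands 9 of 26 rose and 10 fell in A375, and 14 of 24 rose and 2 fell in 451Lu.

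Set beside the members were genes of the same families and, counted with them as relatives, the partner genes KIT (for KITLG) and NPC1 (for NPC2). Of 70 relatives that are no members, 46 were past the floor, 6 were at least 2-fold from on drug in the same direction in both lines, and 15 (32.6%) had ratios of opposite sign, against 33.9% of all genes past the floor. POU3F2, the relative of POU3F1, ran against it, with log2 ratios at 24 h of -1.58 in A375 and 0.96 in 451Lu. With TMM library sizes POU3F2 was among the 8 genes added by the rule. ID1 stood at 2.01 and 0.59, and ID3 at -2.44 and -2.26, where ID4 stood at 2.102 and -1.28. IFIT1, below the floor in A375, had ratios of -1.68 and 2.96, the same directions as IFIT2 and IFIT3. NPC1, which works with NPC2 in cholesterol export, was higher in both lines (1.07 and 1.20), and IRS2 was lower in 451Lu (-1.71) where IRS1 was higher. Outside the members, the genes most like the mean profile of the 15 genes over the 16 libraries, centred within line, were CIAO1 (Pearson r 0.936), ITGB1BP1 (0.921) and DGKE (0.919), and those most like the 28 were TMEM67 (0.961), PPP3CB (0.947) and WDR60 (0.947). These correlations run over libraries that share depth and line and carry no test.

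Some members lie close together in the genome in the coordinates of the deposited table (build GRCh38). Besides IFIT2 and IFIT3, COL15A1 and TGFBR1 are neighbours on chromosome 9 with 33246 bases between them, and THBS1 and BMF lie 488424 bases apart on chromosome 15. In each of these pairs both genes belong to the same direction. ETV6 and GPRC5A on chromosome 12, 995380 bases apart, belong to opposite directions. In GENCODE v29, 19 of the 43 genes share exon bases with a gene on the opposite strand, over 10% of their exonic length in TEX9, HCFC1R1, ITPRIPL2 and OGFRL1. As the strand setting of the counting is not given in the sources used here, reads of those gene pairs cannot be told apart.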

How the data were processed

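Counts per gene of 16 RNA-seq libraries (8 groups of 2) were used as the authors deposited them: raw counts, with TopHat2 2.1.0, Bowtie 1.0.0 and build GRCh38 named in the submitters' processing notes. For the read counter, its annotation release and its strand setting, the sources used here name nothing. Library totals of 9714190 to 16691725 counts bound the precision, and counting intervals and floors cover counting error only. CPM were counts divided by column totals. The 2-fold rule was applied to group means of CPM + 0.5, reading the floor of 5 over any of a line's groups; over the on-drug and 24 h groups alone it gives 40 genes, and calls were counted over these 40. The values of 1 of the 43 genes are not reported here, though it is included in the counts and medians. Members and gene lists were chosen with earlier results of these data known.

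Tests used edgeR 4.0.16 in R 4.3.3 (quasi-likelihood F test, TMM, filterByExpr with a minimum count of 10, Benjamini-Hochberg adjustment over all genes tested), separately for each line and in 1 fit of all 16 libraries for differences between lines. Each SE comes from the size of the log2 fold change over the root of its F statistic. Alternatives were DESeq2 1.42.0, RLE size factors, column totals, no filter, the replicate number as a block and each library left out. On simulated counts with 2-fold changes, the A375 late step test recovered 95% of 100 changed genes among 13881, and the 451Lu late step test 84% among 13488. Tables and figures used Python 3.11.15, pandas 2.3.3, numpy 2.4.6 and matplotlib 3.10.9. Genes named were the 15 of each direction with the largest smaller ratio, up to 5 with the lowest adjusted p in each direction of each late step, members in a gene list, the genes at the 2-fold edge and the 3 most alike in pattern; other members grouped by role, relatives and KIT were named after their values were seen.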

Additional observations from a re-analysis of the deposited data

Results flagged for a closer look

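In 8 of the 40 genes counted both late steps were called with opposite signs and the difference between them, A375 minus 451Lu, was itself called in edgeR's fit of all 16 libraries. That difference was 1.35 for ID4 and -1.20 for SDC3 among the genes higher in A375 at 24 h. Among the genes lower there it was 2.81 for IFIT2, 1.33 for MAP1A and 1.70 for HCFC1R1, whose late steps ran against the sign of their 24 h ratios in both lines. It was -2.54 for ENC1, -1.49 for TMEM131 and -2.31 for ITPRIPL2, whose late steps had the sign of their 24 h ratios in both lines. The steps of ID4 also had that sign, and those of SDC3 ran against it. The A375 step spans 24 h, so it is not the course after 24 h. Between 24 and 48 h in A375 mean CPM went from 13.4 to 19.5 for ENC1 and from 64.75 to 70.4 for TMEM131. It went from 129 to 102 for ITPRIPL2 and from 49.8 to 31.9 for ID4. Of these genes, the A375 step of IFIT2 and the 451Lu steps of ENC1, ID4 and MAP1A lost their own call under at least 1 alternative, while the difference between the lines kept its call under the alternatives run. The steps cover different hours and drugs in the lines, which cannot be told apart here.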

How the results depend on the processing

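Under every alternative run the calls held in 31 of 36 members in the A375 late step, 14 of 23 in the 451Lu late step, 26 of 33 in the difference and 29 of 35 in the level. With all 43 members counted, an alternative added after seeing the data, 39, 26, 36 and 37 were called in these tests. The added genes SCUBE2 and PTPN22 in A375, and TMEM178B in 451Lu, passed the floor only through libraries that these tests compare. Their calls on those libraries carry no test. In A375, RLE size factors gave 4 members of the first direction as lower in place of 2 (EPHA2 and SH3PXD2A being added), and DESeq2 and the fit with no filter gave 3 of the second direction as higher in place of 5. In 451Lu DESeq2 gave 2 of the second direction as higher in place of 4 and 1 of the first as lower in place of 2. In the level comparison column totals left 0 members of the first direction lower in place of 1 (SDC3). ACSL3 in the 451Lu late step stood at -0.0128 with column totals. The cause of these shifts was not tested.

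The rule itself gave 153 genes at 1.5-fold (58 higher in A375 and 95 lower), 4 at 3-fold (2 and 2) and 38 with TMM (20 and 18), which share 30 with the 43. Leaving out a library gave 40 to 45 genes (14 to 17 and 25 to 30), and 29 members stayed in all 8 such sets.

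Leaving out a library in turn gave, in the A375 late step, 32 to 35 members called, 7 to 8 higher and 2 lower of the first direction and 3 to 4 higher and 19 to 21 lower of the second. In the 451Lu late step it gave 19 to 21 called, 3 to 4 higher and 1 to 3 lower of the first and 3 to 4 higher and 10 to 12 lower of the second. In the level it gave 1 to 2 of the second direction as higher. Genes not called in the 451Lu late step that turned sign in that step had ranges of -0.25 to 0.12 (POU3F1), -0.11 to 0.0620 (MCAM), -0.17 to 0.13 (COL15A1), -0.52 to 0.23 (BMF), -0.0276 to 0.31 (BBS12), -0.13 to 0.0565 (ETV6) and -0.18 to 0.00216 (PCDHGC3).

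The titles give the libraries of each group 1 of 2 letters that recur over the groups of a line, taken as replicate numbers, and no label says what they share. Deviations of libraries with the same letter correlated at -0.04 between 48 and 6 h in A375, where all pairs of groups lay between -0.20 and 0.06. In 451Lu the correlation was 0.25 between 120 and 72 h and 0.20 to 0.30 over all pairs of groups off drug, and -0.04 to 0.002 with the on-drug group, so 2 libraries a group leave the pairing unsettled. With the replicate number as a block, 36 members were called in the A375 late step, 23 in the 451Lu late step, 33 in the difference and 35 in the level, the same counts as without it. With 2 libraries a group, few counts limit IFIT2, PTPN22, BMF and COL15A1 in A375 and EPHA2 and TMEM178B in 451Lu.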
